A study of Rattus norvegicus with 20 samples.

Results

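The genes that set the phosphorylation of eukaryotic initiation factor 2 (eIF2) and the recycling of its guanine nucleotide were examined in rat hippocampus. The members were the rows carrying the symbols of the 4 eIF2 kinases (Eif2ak1, Eif2ak2, Eif2ak3 and Eif2ak4), the phosphorylated subunit (Eif2s1), the phosphatase regulators (Ppp1r15a and Ppp1r15b) and a pair of eIF2B subunits (Eif2b4 and Eif2b5). All 9 symbols were found in each table, among 17168 gene symbols.

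Hippocampal mRNA of 20 female rats was sequenced at 4 months of age, with 1 strand-specific library per rat. The study's methods describe food restriction and a radial arm maze task at 4 months, after which some rats were used for sequencing. The genotype comparison held 5 untreated wild-type rats (WTNT) and 5 untreated transgenic rats (TGNT), and asked what the transgenes alter at an early age. The treatment comparison held 4 other TGNT rats and 6 treated transgenic rats (TGTR), and asked what the drugs alter. The series design names 5 untreated rats here, of which 4 have samples and columns. Transgenic rats were of the TgF344-AD line, on a Fischer (F344) background, which carries human APP with the Swedish mutation and human PS1 lacking exon 9, both driven by the mouse prion promoter. TGTR rats ate chow with diazoxide (DZ, 10 mg/kg per day), an opener of ATP-sensitive potassium channels, and dibenzoylmethane (DIB, 200 mg/kg per day), from day 52 of life, while WTNT and TGNT rats ate chow without drugs. DIB is known to relieve the block on translation that phosphorylated eIF2 imposes. The labels name the left hippocampus. Nothing in the labels ties rats to litters, and each rat was taken as 1 replicate.

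Each of the 4 kinases answers a different stress and phosphorylates the alpha subunit of eIF2 at the same serine. Phosphorylated eIF2 binds its exchange factor eIF2B tightly and blocks it, so most translation initiates less often while a few mRNAs such as that of Atf4 are translated more. Protein phosphatase 1, guided by Ppp1r15a or Ppp1r15b, removes the phosphate, and in the hippocampus this switch is known for its part in long-term memory. The tables held mRNA levels. Kinase activity, phosphorylation and protein were not analysed here, and in bulk tissue fewer cells of a type and less RNA per cell cannot be told apart.

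None of the 9 members passed the test in either comparison. Levels are RPM, reads scaled to a common library size with TMM factors, as the authors deposited them, and differences come from edgeR's quasi-likelihood test on the estimated counts of all 17168 genes. Calls required a Benjamini-Hochberg adjusted p under 0.05 together with a fold change of 1.5 or more. Between WTNT and TGNT, 0 of 9 members were called, beside 2 genes in the whole table, or 0.0116%. At an unadjusted p under 0.05 there were 0 members, beside 554 genes or 3.23%, and for 0 members did the groups' RPM not overlap, beside 88 genes or 0.513%. Between TGNT and TGTR, 0 members were called, beside 0 genes (0% of 17168). Here 0 members had an unadjusted p under 0.05, beside 843 genes or 4.91%, and for 0 members were the groups apart, beside 197 genes or 1.15%. DESeq2, edgeR's likelihood ratio test and limma-trend also called 0 members in both comparisons. Of these tools, limma-trend alone gave an unadjusted p under 0.05, for Ppp1r15b between WTNT and TGNT. With limma-trend on log2(RPM + 1) and log2(RPM + 0.1), 710 and 713 of the 17168 genes were at that p.

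A call of 0 does not show that levels were equal, so the intervals matter more than the p-values. The 95% intervals of all 9 members lay inside 1.5-fold in both directions, in both comparisons. Over the members they reached from 0.797-fold to 1.16-fold between WTNT and TGNT, and from 0.821-fold to 1.21-fold between TGNT and TGTR. Such narrow intervals were common in these tables, since 83.8% of the 11357 genes averaging 10 or more counts in the genotype comparison, and 83.9% of 12029 in the treatment comparison, lay inside 1.5-fold too. The median log2 fold change of the members was -0.01 in the genotype comparison, with 4 members higher and 5 lower in TGNT, beside a median of 0.01 over the 11357 genes. It was -0.00178 in the treatment comparison, again with 4 higher and 5 lower, beside 0.000246 over the 12029 genes.

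**Figure D1:**
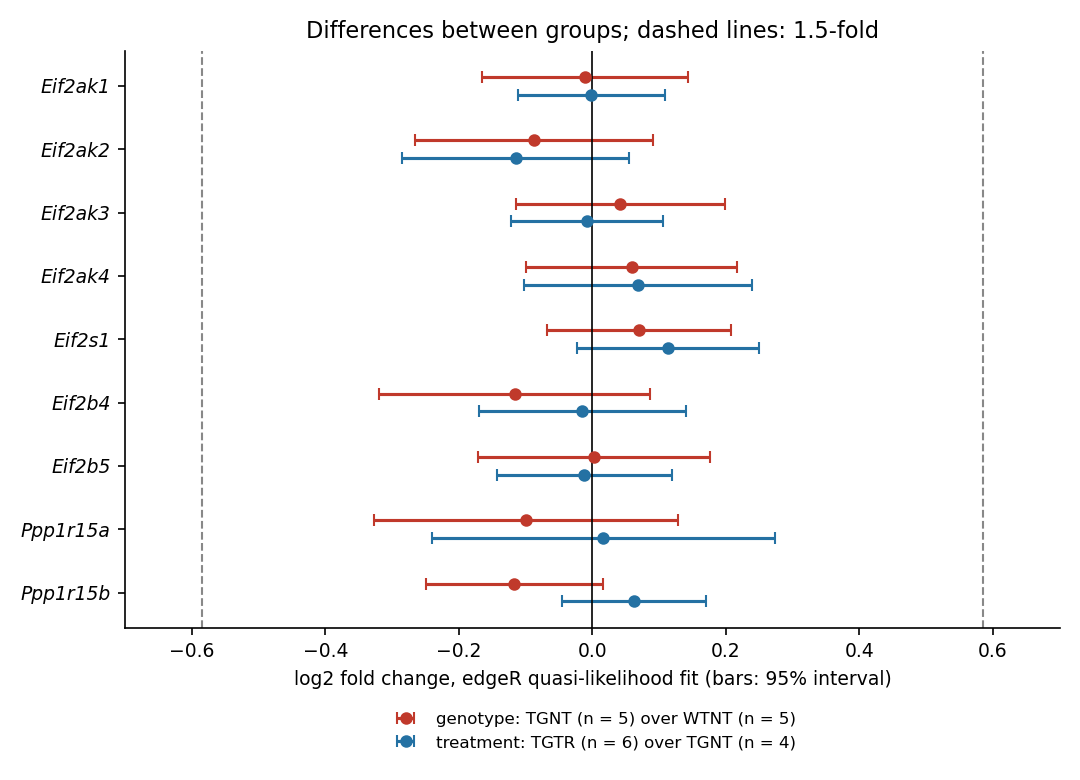
Log2 fold change of each member with its 95% interval from edgeR's quasi-likelihood fit, for TGNT over WTNT (5 against 5 rats) and TGTR over TGNT (6 against 4). Each interval includes 0 and ends short of the dashed lines at 1.5-fold.

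As a check of the labels, App, the rat counterpart of the APP transgene, measured 1101 ± 47.5 RPM (SD, n = 5) in WTNT and 2187 ± 123 RPM (SD, n = 5) in TGNT rats. It rose in TGNT with a log2 fold change of 1.00 (standard error 0.0555, edgeR quasi-likelihood, Benjamini-Hochberg adjusted p = 2.45e-07).

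Eif2ak3 encodes PERK, the kinase of the endoplasmic reticulum that responds to unfolded proteins. Its RPM was 45.4, 47.9, 41.3, 46.9 and 46.5 in the WTNT rats and 42.3, 45.8, 49.8, 50.8 and 44.9 in the TGNT rats. The ranges overlapped over most of their width, and the highest rats of TGNT stood only a few RPM above the highest of WTNT. In the treatment comparison it was 39.1, 42.7, 40.5 and 38.3 in TGNT rats and between 37.2 and 42.6 in TGTR rats, with a median of 39.8. The log2 fold change was 0.04 (95% interval -0.12 to 0.20) for genotype and -0.01 (-0.12 to 0.11) for treatment. For treatment that interval reached from 0.919-fold to 1.08-fold, and no difference in PERK mRNA was detected within it.

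Eif2ak2 encodes PKR, which binds double-stranded RNA and is itself induced by interferon. WTNT rats had 67.3, 68.4, 65.3, 68.1 and 60.2 RPM, and TGNT rats 60.3, 50.4, 71.9, 60.6 and 65.3 RPM. The TGNT rats spread on both sides of the WTNT rats, from the lowest to the highest value of the comparison. For treatment, TGNT rats had 42.6, 41.3, 35.2 and 42.2 RPM, and TGTR rats ranged from 34.01 to 42.9 with a median of 36.02. Of the TGNT rats 3 stood near the top of the treated range and 1 near its bottom. The log2 fold changes were -0.09 (95% interval -0.27 to 0.09) for genotype and -0.12 (-0.28 to 0.05) for treatment, with adjusted p of 1.0 and 0.990 (edgeR, Benjamini-Hochberg). Both were lower on average and neither passed the test.

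Eif2ak1 encodes HRI, a kinase regulated by heme and by signals from stressed mitochondria. It ranged from 49.2 to 63.8 RPM in WTNT and from 55.4 to 59.8 in TGNT rats, and in the treatment comparison from 49.1 to 55.6 in TGNT and from 50.1 to 56.5 in TGTR. Its groups had nearly equal means, 58.2 ± 5.85 (SD, n = 5) against 57.6 ± 2.07 (n = 5) and 53.5 ± 2.98 (n = 4) against 53.3 ± 2.24 RPM (n = 6). The treatment interval, from -0.11 to 0.11 on the log2 scale, was among the narrowest of the members. Eif2ak4 encodes GCN2, the kinase that senses uncharged tRNA when amino acids are short. It measured 31.0 ± 1.32 RPM (SD, n = 5) in WTNT and 32.2 ± 2.30 (n = 5) in TGNT, then 30.3 ± 3.59 (n = 4) in TGNT and 31.6 ± 2.09 (n = 6) in TGTR. Both differences were upward on average, 0.06 and 0.07 on the log2 scale, with intervals from -0.10 to 0.22 and from -0.10 to 0.24.

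Eif2s1 encodes the alpha subunit of eIF2, the substrate of all 4 kinases. It measured 75.1, 77.4, 68.8, 69.5 and 69.1 RPM in the WTNT rats and 74.2, 68.9, 76.6, 82.3 and 74.3 RPM in the TGNT rats. Most TGNT rats lay between the lower and the upper WTNT values, and 1 TGNT rat exceeded every WTNT rat. In the treatment comparison the TGNT rats had 38.6, 44.3, 40.9 and 41.0 RPM, and TGTR rats ranged from 40.2 to 49.3 with a median of 44.4. Treated rats extended higher, and their lower end overlapped the untreated rats. The log2 fold change was 0.07 (95% interval -0.07 to 0.21) for genotype and 0.11 (-0.02 to 0.25) for treatment, with adjusted p of 1.0 and 0.990 (edgeR, Benjamini-Hochberg). The latter had the lowest unadjusted p of the members in the treatment comparison, and its interval still included 0.

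Ppp1r15a, or GADD34, is the stress-inducible partner that brings protein phosphatase 1 to eIF2. It was the member with the fewest reads, between 83 and 149 in the genotype comparison and between 142 and 248 in the treatment comparison. Its RPM was 15.6, 15.2, 15.8, 14.9 and 16.1 in WTNT rats and 16.0, 12.5, 17.0, 12.9 and 13.6 in TGNT rats. The WTNT rats lay close together, and of the TGNT rats 1 stood above them, 1 among them and 3 below. TGNT rats of the treatment comparison had 16.0, 16.6, 15.9 and 15.8 RPM, and the TGTR rats had 12.99, 15.7, 20.03, 14.99, 14.3 and 19.6 RPM. Among TGTR, replicates 3 and 6 stood above every untreated rat and the other 4 below every untreated rat. The untreated spread there, a coefficient of variation of 2.20%, was smaller than the 7.25% that counting alone gives at 190 reads. The 17.7% in TGTR was larger than its 6.999%. In the genotype comparison the spread was 3.17% in WTNT and 13.7% in TGNT, beside 9.483% and 9.526% from counting alone. These differences in spread were not tested. The log2 fold changes were -0.10 (95% interval -0.33 to 0.13) for genotype and 0.02 (-0.24 to 0.27) for treatment, the widest intervals of the members.

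Ppp1r15b, or CReP, is the constitutive partner of the phosphatase. WTNT rats had 146, 143, 130, 153 and 128 RPM and TGNT rats 134, 125, 129, 125 and 130 RPM. In 3 of the WTNT rats the level exceeded every TGNT rat, and the other WTNT rats lay within the TGNT range. A list of hippocampal neuron markers, described below, was also higher in those 3 rats. Its mean log2(RPM + 1) was 7.711, 7.554 and 7.677 there, and 6.926 and 7.095 in the other WTNT rats. The TGNT rats had 7.047 to 7.383, and the relation was not tested. The log2 fold change of Ppp1r15b was -0.12 (95% interval -0.25 to 0.02, edgeR, Benjamini-Hochberg adjusted p = 1.0), and no other member had as low an unadjusted p for genotype. For treatment, TGNT rats had 96.5, 109, 104 and 107 RPM, and TGTR rats ranged from 99.6 to 114 with a median of 109. The groups overlapped, and the log2 fold change was 0.06 (-0.05 to 0.17). The estimated counts of Ppp1r15b were fractions in 10 of 10 rats of the genotype comparison and in 9 of 10 of the treatment comparison. Such fractions occur when reads are divided between genes. A processed copy of Ppp1r15b elsewhere in the genome is among the candidates, but the genes sharing its reads were not identified. Eif2ak2 also had fractional counts, in 9 and 10 of 10 rats, so the levels of both genes carry that uncertainty, whereas the other 7 members had whole counts in every rat.

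Eif2b4 and Eif2b5 encode the delta subunit, in the regulatory core of eIF2B, and the epsilon subunit, which carries its exchange activity; mutations in either cause a leukodystrophy in people. Eif2b4 measured 19.3 ± 1.37 RPM (SD, n = 5) in WTNT and 17.7 ± 1.56 (n = 5) in TGNT, and 21.4 ± 1.91 (n = 4) in TGNT and 21.2 ± 0.929 (n = 6) in TGTR. In each TGNT group 1 rat, replicate 4, stood below the others, at 14.9 and at 18.6 RPM, and these were different animals. The log2 fold change of Eif2b4 was -0.12 (95% interval -0.32 to 0.09) for genotype and -0.02 (-0.17 to 0.14) for treatment. Eif2b5 was nearly the same in all groups of a table, with 41.3 ± 3.46 (SD, n = 5) against 41.2 ± 3.52 RPM (n = 5) for genotype and 44.6 ± 1.66 (n = 4) against 44.2 ± 3.37 (n = 6) for treatment. Its intervals ran from -0.17 to 0.18 and from -0.14 to 0.12 on the log2 scale.

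**Figure D2:**
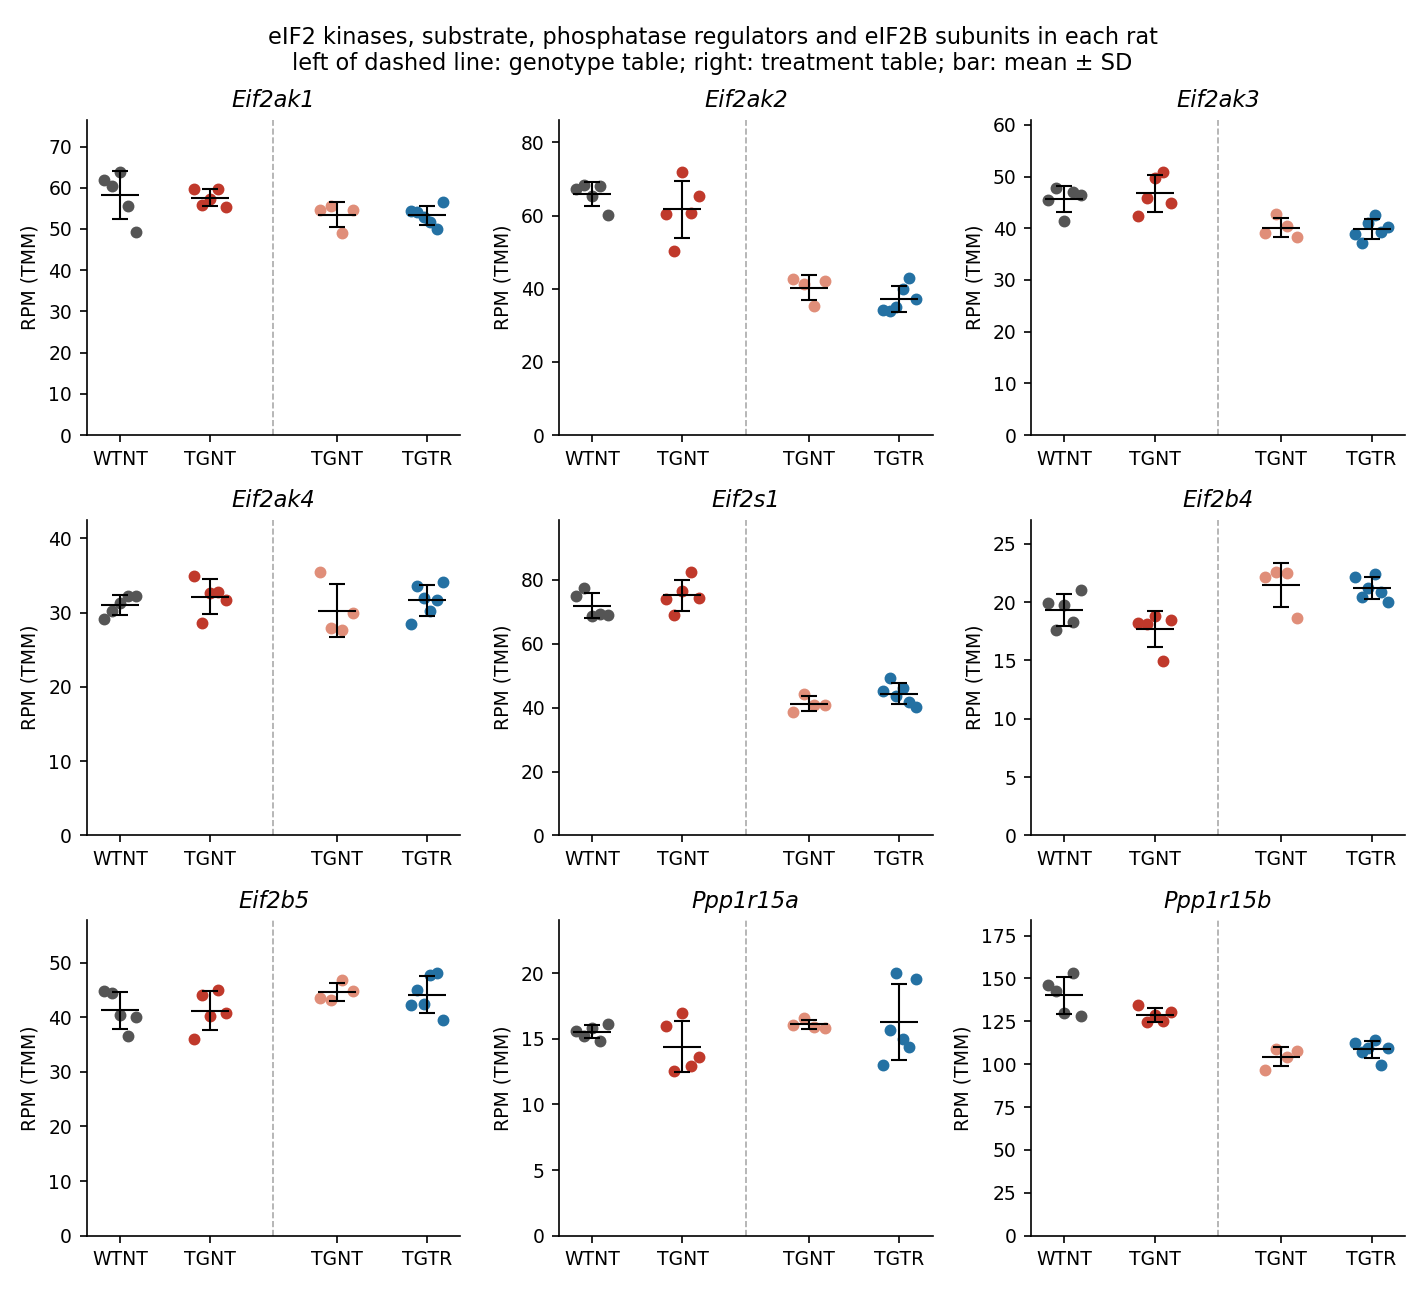
RPM of each member in each of the 20 rats, by group; points are rats and bars the mean ± SD, with the genotype table left of each dashed line and the treatment table right of it. Groups of a table overlap in every panel, and Ppp1r15a spreads most among TGTR rats, from 12.99 to 20.03 RPM.

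Among rats of 1 group, the coefficient of variation of the members' RPM had a median of 7.14% in the genotype comparison, from 3.17% to 13.7%. In the treatment comparison the median was 5.65%, from 2.20% to 17.7%. This spread was not compared with that of other genes. For some members the levels of TGNT rats differed more between the tables than those of any groups within a table. Eif2s1 averaged 75.3 RPM in the TGNT rats of the genotype table and 41.2 in those of the treatment table, and Eif2ak2 61.7 and 40.3. Ppp1r15b averaged 129 and 104 RPM, while Eif2ak1, Eif2ak4, Eif2b5 and Ppp1r15a had ratios between 0.894 and 1.08. Eif2ak3 had a ratio of 1.165 and Eif2b4 the lowest of the members, 0.825. The tables were normalized separately and their TGNT rats are different animals, so these ratios were not tested. Such ratios occurred across the tables, where 30.5% of 8184 genes with at least 10 RPM in both TGNT groups differed beyond 1.5-fold between them. Eif2s1, with a ratio of 1.83, stood above 95.2% of those genes. Of its partners in the complex, Eif2s2, the beta subunit, had a ratio of 2.03 and Eif2s3x, the gamma subunit, a lower one of 1.39.

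No relation between members passed the test across rats. With the group means removed, log2(RPM + 1) of the 9 members gave 36 pairs over 20 rats, of which 20 had a positive and 16 a negative Pearson's r, with a median of 0.0641. By permutation of rats within groups, 2 pairs had an unadjusted p under 0.05 and 0 pairs an adjusted one (Benjamini-Hochberg, lowest adjusted p = 0.752). Eif2ak4 and Eif2b5 had r = -0.463 (permutation p = 0.0297) and Spearman's rho = -0.403 (permutation p = 0.0928), with r = -0.737 in the genotype table, -0.265 in the treatment table and -0.461 without the 2 rats farthest from the median of Eif2ak4. Eif2ak4 and Ppp1r15a had r = 0.451 (permutation p = 0.0427) and rho = 0.444 (permutation p = 0.0638), with 0.562 and 0.398 in the tables and 0.492 without the 2 farthest rats. The r farthest from 0 was that of Eif2b5 and Ppp1r15a, -0.488 (permutation p = 0.0627), with rho = -0.51 (permutation p = 0.0529), -0.487 and -0.537 in the tables and -0.546 without the 2 rats farthest from the median of Eif2b5. For these 3 pairs the adjusted p was 0.752 for r and 0.754 for rho. Of the 36 pairs 21 had the same sign in both tables.

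**Figure D3:**
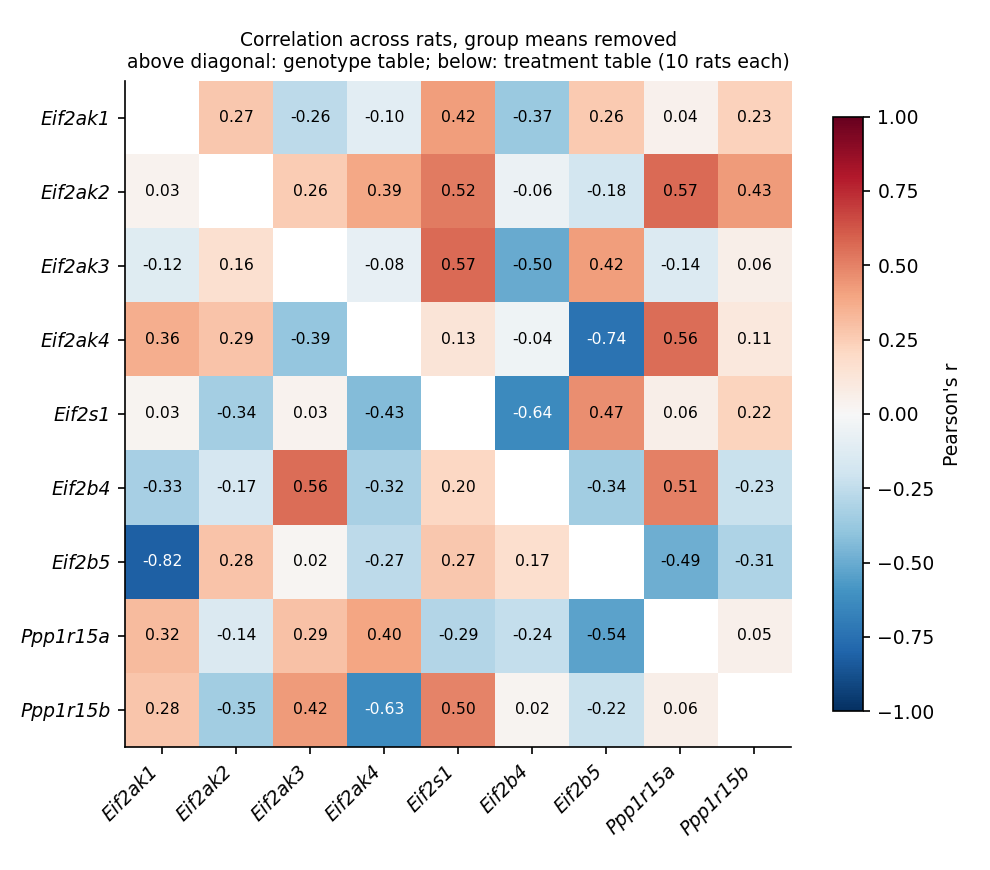
Pearson's r between members across rats, on log2(RPM + 1) with the group mean removed; the genotype table is above the diagonal and the treatment table below it, with 10 rats each. Of 36 pairs, 21 keep their sign from 1 table to the other.

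For each member the most similar gene outside the 9 was sought among 8195 genes averaging 10 RPM or more in both tables, by the mean of the within-table Pearson's r over 10 rats each. These were Ttpal for Eif2ak1, Rpgrip1l for Eif2ak2, Nsa2 for Eif2ak3, Nop14 for Eif2ak4, Ggh for Eif2s1, Ndufs5 for Eif2b4, Urod for Eif2b5, Vdac1 for Ppp1r15a and Stx6 for Ppp1r15b. Their mean r ran from 0.698 for Nsa2 to 0.923 for Stx6. Each is the highest of 8195 values, and no p was computed. No gene was the nearest of more than 1 member.

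Known regulation of some members gave further comparisons, with marker lists measured in the same rats, and the promoters of these genes were read for the matching motifs. All 9 members had a promoter of 300 bases, from 250 before to 50 after the start, in RefSeq (GRCr8), among 33469 promoters. The motifs, sought on both strands, were the cyclic AMP response element TGACGTCA, found in 1.83% of all promoters, the C/EBP-ATF response element TGATGNAA bound by ATF4, in 3.98%, the core of the interferon-stimulated response element GAAANNGAAA, in 3.92%, and the endoplasmic reticulum stress element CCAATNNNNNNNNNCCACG, in 0.0657%. The following stretches show the 3 matches among members, 5′ to 3′ on the strand of the gene, with the match in capitals.
Ppp1r15a, cyclic AMP response element, GRCr8 chr1:105139631-105139686, minus strand: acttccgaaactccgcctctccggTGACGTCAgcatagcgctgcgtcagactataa
Ppp1r15b, C/EBP-ATF response element, GRCr8 chr13:47129798-47129853, plus strand: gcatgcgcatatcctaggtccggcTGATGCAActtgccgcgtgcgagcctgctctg
Eif2ak2, interferon-stimulated response element core, GRCr8 chr6:21941114-21941171, plus strand: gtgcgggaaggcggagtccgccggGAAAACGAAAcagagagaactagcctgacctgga
The matches began 66, 178 and 16 bases before the start, and 0 members held the endoplasmic reticulum stress element. A match is a description, not a site or a cause.

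Ppp1r15a is induced as an early gene in many cells, and 3 of 9 immediate early gene promoters on the list held the same TGACGTCA. The list of 11 immediate early genes (Fos, Fosb, Junb, Egr1, Egr4, Arc, Npas4, Nr4a1, Dusp1, Ier2 and Btg2) differed in mean log2(RPM + 1) by 0.39 between TGTR and TGNT (exact permutation test, two-sided, p = 0.0286, adjusted p = 0.314 over 22 tests). All 11 were higher on average in TGTR, 7 of them at an unadjusted p under 0.05 beside 2.98% of all genes, while Ppp1r15a had a log2 fold change of 0.02. For genotype the list differed by -0.13, TGNT minus WTNT (exact permutation p = 0.333, adjusted p = 0.688), with 7 genes lower and 4 higher in TGNT, of which 4 and 1 had an unadjusted p under 0.05 beside 1.5% and 1.72% of all genes. There Ppp1r15a had a log2 fold change of -0.10. Across rats with group means removed, Ppp1r15a and the list had r = 0.461 (permutation p = 0.116) and rho = 0.362 (permutation p = 0.171), adjusted p = 0.126 and 0.231 over 3 relations. Within the tables r was 0.109 for genotype and 0.675 for treatment, and without the 2 rats farthest from the list's median it was 0.396. TGTR replicates 3 and 6, the rats highest in Ppp1r15a, were also the highest of their group in the list, at 4.805 and 4.72 on its log2 scale. The relation did not pass the test.

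Eif2ak2 is an interferon-stimulated gene, and 6 of 8 promoters of that list held its motif. The list of 14 interferon-stimulated genes differed by 0.11 between WTNT and TGNT and by -0.07 between TGNT and TGTR in mean log2(RPM + 1) (exact permutation p = 0.294 and 0.362, adjusted p = 0.688 for both). In TGNT 9 of its genes were higher and 5 lower, and in TGTR 3 were higher and 11 lower. At an unadjusted p under 0.05 there was 1 higher and 0 lower each time. Of all genes, 1.72% were higher and 1.5% lower at that p for genotype, and 2.98% and 1.93% for treatment. Eif2ak2 and the list had r = 0.328 (permutation p = 0.126) and rho = 0.284 (permutation p = 0.231), with r of 0.139 and 0.562 in the tables and 0.260 without the 2 farthest rats. Eif2ak1 is abundant in the erythroid lineage, where heme regulates it. With a list of 5 measured erythroid genes it had r = -0.322 (permutation p = 0.0724) and rho = -0.353 (permutation p = 0.0914), with -0.433 and -0.431 in the tables and -0.460 without the 2 farthest rats. Adjusted over the 3 relations these p were 0.126 for r and 0.231 for rho. Blood RNA was uneven, and TGTR replicate 4 had a summed level of 1351 RPM over the erythroid genes against 199.9 to 274 in the other TGTR rats, with Eif2ak1 at 51.7 RPM inside the range of its group.

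**Figure D4:**
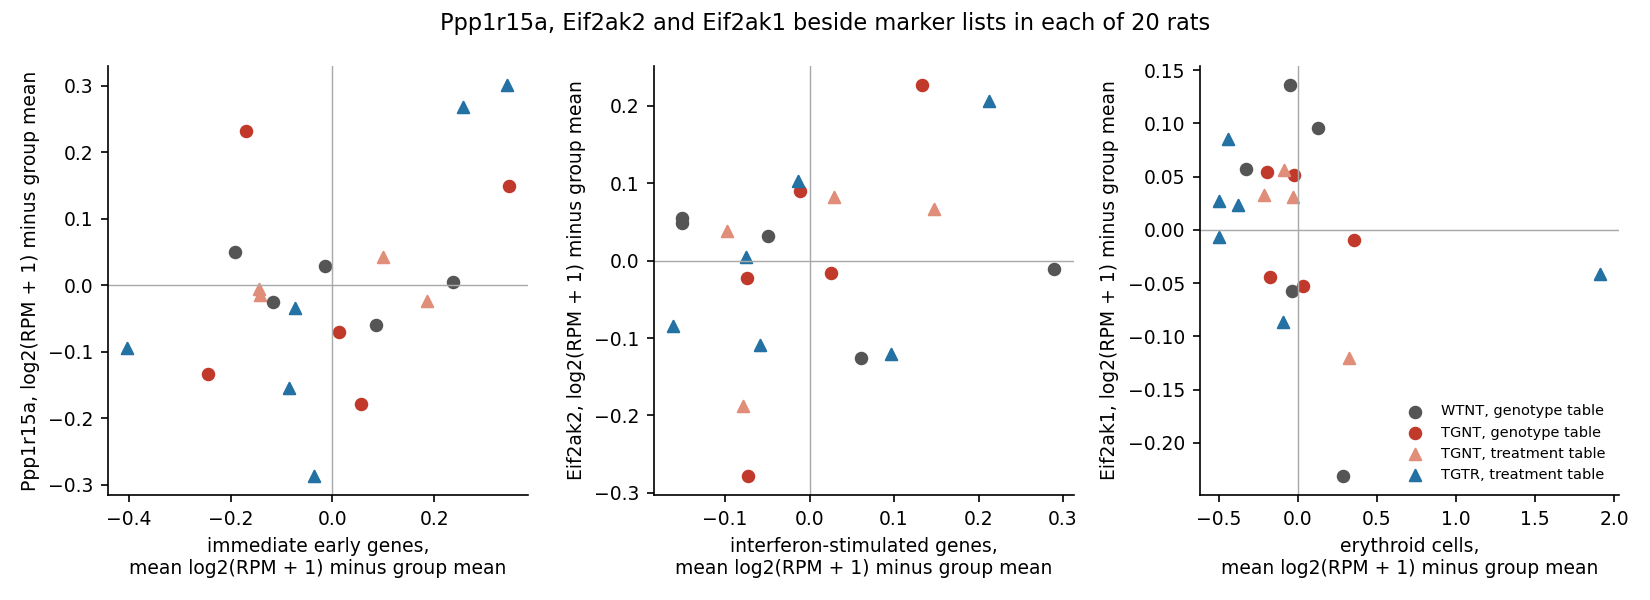
Deviation of Ppp1r15a, Eif2ak2 and Eif2ak1 from the group mean of log2(RPM + 1), against that of the mean of a marker list, in 20 rats. Points are scattered in each panel (r = 0.461, 0.328 and -0.322), and the lone point far right belongs to TGTR replicate 4.

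Other genes of the pathway were taken from 6 lists holding 60 symbols, of which 55 were in the tables. In the genotype comparison 2 of 55 (3.64%) had an unadjusted p under 0.05, both higher in TGNT, beside 1.72% of all genes higher and 1.5% lower at that p. In the treatment comparison there were 3 of 55 (5.45%), 2 higher and 1 lower in TGTR, beside 2.98% and 1.93% of all genes. None of the 55 was called in either comparison by edgeR's quasi-likelihood test.

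The genotype pair were Prkra and Cdc123. Prkra, or PACT, is a double-stranded RNA binding protein that activates PKR, and measured 15.2 ± 2.63 RPM (SD, n = 5) in WTNT and 18.8 ± 1.39 (n = 5) in TGNT rats. Its log2 fold change was 0.31 (95% interval 0.06 to 0.57, edgeR, Benjamini-Hochberg adjusted p = 1.0), and 2 of 5 WTNT rats, at 16.7 and 18.9 RPM, lay inside the TGNT range of 16.6 to 20.4. Cdc123, a chaperone for assembly of the eIF2 complex, measured 47.9 ± 2.01 RPM in WTNT and 53.9 ± 5.32 in TGNT, a log2 fold change of 0.18 (0.02 to 0.34, adjusted p = 1.0).

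In the treatment comparison the genes were Dnajc3, Ppp1cb and Eif3e. Dnajc3, or P58IPK, an inhibitor of PKR and PERK induced by endoplasmic reticulum stress, measured 25.6 ± 0.593 RPM (SD, n = 4) in TGNT and 28.6 ± 1.96 (n = 6) in TGTR. The log2 fold change was 0.16 (95% interval 0.03 to 0.30, edgeR, Benjamini-Hochberg adjusted p = 0.964), and 5 of 6 treated rats exceeded all untreated ones. Ppp1cb, a catalytic subunit of the phosphatase that Ppp1r15a and Ppp1r15b guide, measured 341 ± 28.8 RPM in TGNT and 372 ± 9.33 in TGTR, with a log2 fold change of 0.13 (0.01 to 0.24, adjusted p = 0.979). Eif3e, a subunit of eIF3, was the only gene of the 5 whose groups did not overlap, though they all but touched. The TGNT rats ranged from 80.7 to 87.2 RPM and the TGTR rats from 72.9 to 80.65, a gap worth less than 1 read, with a log2 fold change of -0.11 (-0.21 to -0.01, adjusted p = 0.964).

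The ATF4 branch, whose mRNAs follow phosphorylated eIF2, showed no difference that passed the test. Of its 23 genes 18 averaged 10 or more counts, with a median log2 fold change of -0.01 in both comparisons, 7 higher and 11 lower in TGNT and 8 higher and 10 lower in TGTR. It held 0 genes at an unadjusted p under 0.05 in either comparison by edgeR's quasi-likelihood test. The 3 other eIF2B subunits had a median of 0.06 in the genotype and -0.06 in the treatment comparison, and 14 other initiation factors -0.04 and -0.01. The lists that came nearest to the members in function, the eIF2 partners (4 genes), the catalytic subunits of protein phosphatase 1 (3 genes) and the regulators of the kinases (8 genes), had medians of 0.04, -0.03 and 0.08 for genotype and 0.01, 0.02 and 0.03 for treatment.

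**Figure D5:**
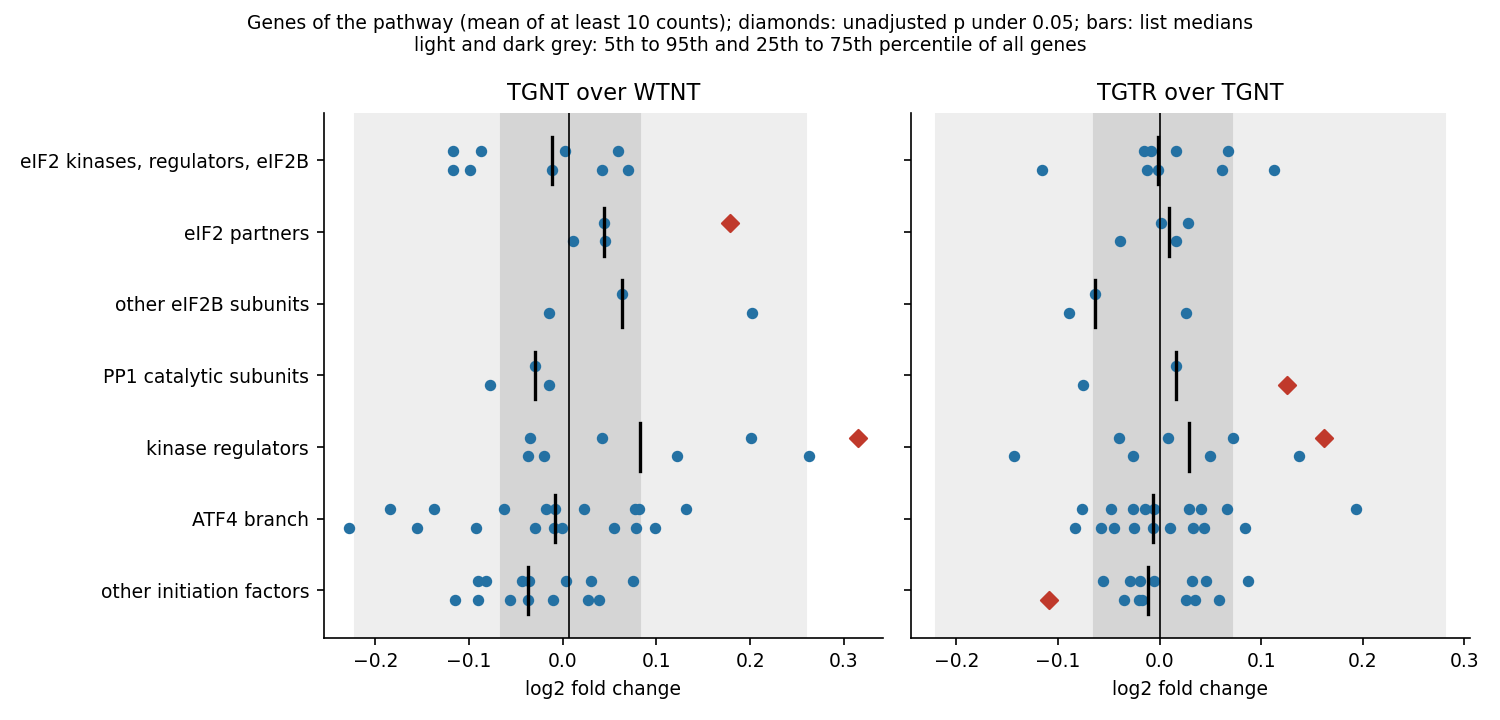
Log2 fold change of the members and of 6 lists of pathway genes averaging 10 or more counts, TGNT over WTNT on the left and TGTR over TGNT on the right; diamonds mark the 5 genes at an unadjusted p under 0.05, bars the list medians, and dark and light grey bands the middle 50% and 90% of all genes. All but 3 of the genes for genotype and all for treatment lie inside the light band.

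The tissue was checked with marker lists. Of 10 hippocampal neuron markers, 9 were present in every rat, Prox1 of granule cells between 47.2 and 186 RPM among them, while Spink8 was at or near 0 throughout. Neither this list nor those of astrocytes, oligodendrocytes, brain endothelium, choroid plexus, erythroid cells or thalamus and habenula differed between groups at an unadjusted p under 0.05 in the exact permutation test. Single genes in some of them had an unadjusted p under 0.05 in the edgeR fit. In TGNT against WTNT, 7 of 8 oligodendrocyte genes were lower, 2 of them at that p, as were 7 of 10 choroid plexus genes, 1 at that p, beside 1.5% of all genes. Lower too, with 0 at that p, were 9 of 10 genes of hippocampal neurons, 4 of 7 of astrocytes, 3 of 5 of endothelium and 1 of 5 each of erythroid cells and of thalamus and habenula. In TGTR against TGNT, all 10 choroid plexus genes were higher, 4 at that p, all 5 endothelial genes, 2 at that p, and 4 of 5 genes of thalamus and habenula, 1 at that p, beside 2.98% of all genes. With 0 at that p, 7 of 8 oligodendrocyte and 5 of 5 erythroid genes were higher there, and 8 of 10 neuronal and 7 of 7 astrocyte genes lower. The microglia list differed by 0.10 in mean log2(RPM + 1) between TGNT and WTNT (exact permutation p = 0.0159, adjusted p = 0.314), with 10 of 10 genes higher in TGNT and 0 at an unadjusted p under 0.05; in TGTR 8 of 10 were lower, also with 0. These 22 tests allowed a smallest p of 0.00794 in the genotype and 0.00952 in the treatment comparison, so a lone test could not reach an adjusted p under 0.05. Choroid plexus RNA was uneven among TGTR rats. The summed level of its 10 markers was 2946 RPM in replicate 5 and 148 in replicate 6 against 9.74 to 11.6 in the other TGTR rats and 12.4 to 24.3 in the TGNT rats of that table, so that 4 of 6 treated rats lay below every untreated one and the higher average of the sum rests on replicates 5 and 6. In those 2 rats Ttr was the most abundant gene at 2501 and 108 RPM, and 0 markers were at 0. Members in replicate 5 lay at the edge of the TGTR range for Eif2ak2 (42.9 RPM, highest), Eif2b5 (48.2 RPM, highest), Eif2ak1 (50.1 RPM, lowest) and Ppp1r15b (99.6 RPM, lowest). In mean log2(RPM + 1), replicate 5 was the lowest TGTR rat for neurons (6.971), astrocytes (8.87) and microglia (4.741). It was the highest for choroid plexus (5.813) and brain endothelium (4.86). The part of choroid plexus RNA or of other tissue content in these member levels was not tested.

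Library totals in the genotype comparison ranged from 5848458 to 9926088 estimated counts for WTNT and from 6610498 to 8117561 for TGNT. They were larger in the treatment comparison, from 11151973 to 13481985 for TGNT and from 9215039 to 14175594 for TGTR. These totals did not differ between groups at an unadjusted p under 0.05 (exact permutation p = 0.508 and 0.724, on the log2 scale). The standard error of the members' log2 fold change was between 0.0623 and 0.107 for genotype and between 0.0499 and 0.119 for treatment, largest in both for Ppp1r15a.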

How the data were processed

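The authors deposited, for each comparison, a table of estimated counts per gene symbol and a table of the signal made from them, RPM scaled with TMM factors computed per table (10 rats each). The submitters' processing notes name bcl2fastq 2.17, Bowtie2 2.1.0, RSEM 1.2.15, edgeR and build rn6; the annotation is not given in the sources used here. Columns were matched to rats by title, and 0 were left without one. For each comparison the estimated counts, as rounded integers, were fitted with edgeR 4.0.16 in R 4.3.3 (TMM factors, quasi-likelihood test, two-sided, Benjamini-Hochberg over 17168 genes), and 95% intervals were taken from the same fit. The fit was tested on simulated data. Groups were compared only within a table; the levels of TGNT rats in the 2 tables are described side by side, untested. Marker lists were compared by exact permutation of mean log2(RPM + 1) with scipy 1.17.1, and correlations by 100000 permutations of rats within groups. Counts within 0.005 of an integer were taken as whole. Alternatives were RLE factors, library size only, DESeq2 1.42.0, the likelihood ratio test, limma-trend (limma 3.58.1), filters on low counts, a block for the replicate number and fits without each rat. Genes named are the members, App, genes of the pathway lists at an unadjusted p under 0.05 and the gene most like each member; others, such as Eif2s2, Eif2s3x and Prox1, were chosen after their values were seen. The members and lists were chosen with earlier results of these data known. The labels name the left hippocampus and the study's methods the right.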

Additional observations from a re-analysis of the deposited data

Results flagged for a closer look

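In groups of 4 to 6 rats, the gap between the extreme rat and its neighbour was set against the range of the group (Dixon's ratio at 95%), which chance exceeds in about 1 in 20 groups. Among 36 groups of member levels 3 exceeded it, all untreated transgenic rats standing low. Eif2ak1 was at 49.1 RPM in TGNT replicate 3 of the treatment comparison, against 54.6 to 55.6 in the other 3 rats. Eif2b4 was at 14.9 RPM in TGNT replicate 4 of the genotype comparison, against 18.1 to 18.8 in the other 4, and at 18.6 RPM in TGNT replicate 4 of the treatment comparison, against 22.2 to 22.5 in the other 3. Among 40 groups of marker list levels, in mean log2(RPM + 1), 3 exceeded it. The choroid plexus list was at 1.00 in TGNT replicate 2 of the treatment comparison, against 1.30 to 1.33. The erythroid list was at 6.24 in TGTR replicate 4, against 3.83 to 4.24. The microglia list was at 4.74 in TGTR replicate 5, against 4.84 to 4.87.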

How the results depend on the processing

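In 19 alternatives per comparison 0 members were called, and log2 fold changes of members stayed between -0.17 and 0.10 for genotype and between -0.18 and 0.17 for treatment. At an unadjusted p under 0.05 the count of 0 members became 1 for genotype with limma-trend at either pseudocount (Ppp1r15b). It ranged from 0 to 1 when each rat was left out (Ppp1r15b without WTNT replicate 3 or 5). Of all 17168 genes, 710 and 713 were at that p with limma-trend at pseudocounts of 1 and 0.1. Without WTNT replicate 3 or 5 there were 986 and 877, against 554 in the main fit. For treatment the count of members became 2 with library size only (Eif2s1 and Ppp1r15b), beside 1036 of all 17168 genes, against 843 in the main fit. Without each rat it ranged from 0 to 1. Eif2ak2 was at that p without TGNT replicate 3 or TGTR replicate 5, beside 654 and 900 of all genes. Eif2ak4 was so without TGNT replicate 1, beside 1207, and Eif2s1 without TGTR replicate 6, beside 711. With the replicate number as a block the count was 0 for genotype, where 553 of 17168 genes were at that p. For treatment it was 1 (Eif2s1, log2 fold change 0.17), beside 409 genes. TGTR replicates 5 and 6 have no untreated rat of the same number, so in that fit they do not inform the difference. They were the TGTR rats lowest in Eif2s1, at 41.8 and 40.2 RPM. With the block, 2 genes of the whole table were called for genotype and 1 gene for treatment. Same-numbered rats had r from -0.21 to 0.34 for genotype and from -0.576 to 0.142 for treatment. These values do not show that the numbers pair rats, and cannot exclude it. Signs changed only for members near 0, and the cause was not tested. The median log2 fold change over genes averaging 10 or more counts also moved with the scaling. For genotype it was -0.0036 with RLE factors, against 0.0063 in the main fit. For treatment it was 0.037 with library size only, against 0.00025 in the main fit. Eif2b5 for genotype became -0.0077 with RLE factors, -0.0090 with DESeq2, -0.0010 with limma-trend at either pseudocount, -0.0052 with filterByExpr and -0.0024 with at least 10 counts in every rat. For treatment, library size only gave 0.035 for Eif2ak1, 0.029 for Eif2ak3, 0.021 for Eif2b4 and 0.026 for Eif2b5; the block gave 0.012 for Eif2b4 and -0.026 for Ppp1r15a; limma-trend gave -0.0028 and -0.0039 for Ppp1r15a. Without each rat, the ranges that cross 0 were -0.064 to 0.012 (Eif2ak1), -0.0052 to 0.079 (Eif2ak3) and -0.045 to 0.051 (Eif2b5) for genotype, and -0.043 to 0.017 (Eif2ak1), -0.032 to 0.019 (Eif2ak3), -0.079 to 0.0077 (Eif2b4), -0.038 to 0.016 (Eif2b5) and -0.052 to 0.071 (Ppp1r15a) for treatment. Chosen after seeing the data, a pseudocount of 0.1 and leaving out each rat gave 0 of 36 member pairs and 0 of 3 list relations at an adjusted p under 0.05; the 2 list differences at an unadjusted p under 0.05 were 2 with 0.1 and from 1 to 3 without each rat (1 without TGNT replicate 1 of the treatment comparison). Over all genes the treatment comparison had 3 calls with DESeq2 and 5 with the likelihood ratio test against 0, and the genotype comparison 4 with the latter against 2.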
